A study of Mus musculus with 28 samples.

Results

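Chromatin at the genes of the cell division machinery was followed in mouse macrophages: cyclins (Ccna, Ccnb, Ccnd and Ccne), cyclin-dependent kinases (Cdk), their inhibitors (Cdkn), E2F transcription factors, minichromosome maintenance (Mcm) genes and genes named Cdc. A peak was counted as theirs where the nearest protein-coding gene span, at most 50 kb away in the RefSeq table for mm10, carried such a symbol. The symbols matched 66 of 21900 protein-coding genes. They took 305 of 63313 peaks of histone H3 acetylated at lysine 27 (H3K27ac, a mark of active promoters and enhancers) at 61 genes. They also took 38 of 8394 peaks of the glucocorticoid receptor (GR), at 20 genes. Assigning a peak to its nearest gene does not show that the peak acts on that gene.

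The cells were primary macrophages from the marrow of C57BL/6 males (8 to 10 weeks of age), differentiated over 5 days in medium conditioned by L cells and assayed by chromatin immunoprecipitation and sequencing. GR chromatin was crosslinked in 2 steps, and H3K27ac chromatin with formaldehyde alone. Groups received vehicle, 500 nM corticosterone (Cort, the natural glucocorticoid of mice), 100 nM dexamethasone (Dex, a synthetic one) or 10 ng/ml interleukin 4 (IL4, a cytokine that signals through STAT6). All received them for 24 h, except that the titles of the H3K27ac vehicle libraries give no time. H3K27ac had 3 libraries per group. GR had 3 libraries with IL4, all in batch 2, and 4 in every other group, spread over batches 1 and 2. An H3K27ac input library was not analysed here. Nothing in the labels says that libraries came from separate animals or cultures, so p-values measure the spread between libraries, which may be technical.

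Cyclins bind and switch on cyclin-dependent kinases. The D-type cyclins with Cdk4 and Cdk6 phosphorylate the retinoblastoma protein, which frees E2F factors to switch on genes for DNA synthesis, among them the Mcm genes that encode the replicative helicase and Cdc6 that helps load it. Cyclins E, A and B then drive S phase and mitosis, and the Cdkn proteins restrain the kinases. Macrophages grown from marrow divide in response to colony stimulating factor 1, which L cells secrete, and several Cdk and Cdc members work outside the division cycle, in transcription, splicing or the cytoskeleton.

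The sequences on which the results turn are the starts of Ccnd3, which held the largest rise with either steroid among these peaks, and the starts of Ccnb1, Cdc6, E2f1, E2f3 and Mcm5, where acetylation was lower with Dex in the fit that pairs libraries by replicate number. The upstream E2f3 window and the Cdk1 window held all 3 kinds of cell cycle letters searched. Cdk1, which did not pass the test with Dex, is shown beside the others. The second E2f3 window (chr13:29984342-29984641), under the same acetylated peak, held 0 of each kind and is not shown. Also lower with Dex in that fit but not shown are the starts of E2f2, E2f8, Mcm10, Cdk14 and Cdk18. Each window runs from 250 bases before to 50 after a transcript start in the table, 5′ to 3′ on the gene's strand, from RefSeq (GRCm38.p6). Capitals mark letters of E2F sites (TTCCCGC or TTCGCGC), the cell cycle homology region (CHR, TTTGAA) and CCAAT, on either strand.
Ccnd3, upstream start, chr17:47504801-47505100, plus strand: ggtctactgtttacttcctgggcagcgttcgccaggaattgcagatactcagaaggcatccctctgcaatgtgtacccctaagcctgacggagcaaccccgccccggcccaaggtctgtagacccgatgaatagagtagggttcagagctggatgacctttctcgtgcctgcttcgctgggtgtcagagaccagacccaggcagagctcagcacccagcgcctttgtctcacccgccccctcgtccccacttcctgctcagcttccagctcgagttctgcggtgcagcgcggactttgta
Ccnd3, downstream start, chr17:47593217-47593516, plus strand: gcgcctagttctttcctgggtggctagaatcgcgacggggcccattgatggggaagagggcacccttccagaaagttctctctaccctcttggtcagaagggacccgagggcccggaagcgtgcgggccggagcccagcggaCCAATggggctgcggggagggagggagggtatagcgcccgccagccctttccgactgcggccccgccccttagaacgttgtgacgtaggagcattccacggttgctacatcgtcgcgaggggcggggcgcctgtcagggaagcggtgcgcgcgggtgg
Ccnb1, chr13:100786437-100786736, minus strand: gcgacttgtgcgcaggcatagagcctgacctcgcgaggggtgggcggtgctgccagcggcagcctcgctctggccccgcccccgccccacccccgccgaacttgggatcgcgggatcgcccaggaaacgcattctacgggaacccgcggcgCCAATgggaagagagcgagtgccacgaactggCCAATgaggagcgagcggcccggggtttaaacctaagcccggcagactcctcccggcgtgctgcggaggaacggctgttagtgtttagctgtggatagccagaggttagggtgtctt
Cdc6, chr11:98907901-98908200, plus strand: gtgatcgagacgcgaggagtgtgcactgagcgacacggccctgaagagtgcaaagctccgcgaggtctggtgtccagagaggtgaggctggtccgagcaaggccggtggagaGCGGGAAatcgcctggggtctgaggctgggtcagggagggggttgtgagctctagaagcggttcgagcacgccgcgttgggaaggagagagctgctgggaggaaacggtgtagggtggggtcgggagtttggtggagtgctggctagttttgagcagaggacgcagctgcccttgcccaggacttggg
E2f1, chr2:154569377-154569676, minus strand: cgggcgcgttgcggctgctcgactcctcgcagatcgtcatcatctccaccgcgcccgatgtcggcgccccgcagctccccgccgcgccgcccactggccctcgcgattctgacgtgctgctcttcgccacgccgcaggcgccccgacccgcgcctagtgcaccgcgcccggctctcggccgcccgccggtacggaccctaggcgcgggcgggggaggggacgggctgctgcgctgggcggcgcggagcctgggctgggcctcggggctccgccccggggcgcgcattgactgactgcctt
E2f3, upstream start, chr13:29986014-29986313, minus strand: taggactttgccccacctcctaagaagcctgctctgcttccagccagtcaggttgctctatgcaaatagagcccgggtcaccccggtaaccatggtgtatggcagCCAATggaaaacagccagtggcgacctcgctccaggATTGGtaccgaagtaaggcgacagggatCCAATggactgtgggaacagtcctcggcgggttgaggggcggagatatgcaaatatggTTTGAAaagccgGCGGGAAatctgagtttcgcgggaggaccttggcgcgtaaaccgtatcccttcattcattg
Mcm5, chr8:75109259-75109558, plus strand: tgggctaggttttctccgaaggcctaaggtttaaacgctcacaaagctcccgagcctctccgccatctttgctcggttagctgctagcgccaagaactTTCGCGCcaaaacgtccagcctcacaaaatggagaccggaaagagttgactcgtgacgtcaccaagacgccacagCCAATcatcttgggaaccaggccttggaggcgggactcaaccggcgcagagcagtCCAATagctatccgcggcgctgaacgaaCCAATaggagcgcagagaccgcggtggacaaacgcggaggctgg
Cdk1, chr10:69352863-69353162, minus strand: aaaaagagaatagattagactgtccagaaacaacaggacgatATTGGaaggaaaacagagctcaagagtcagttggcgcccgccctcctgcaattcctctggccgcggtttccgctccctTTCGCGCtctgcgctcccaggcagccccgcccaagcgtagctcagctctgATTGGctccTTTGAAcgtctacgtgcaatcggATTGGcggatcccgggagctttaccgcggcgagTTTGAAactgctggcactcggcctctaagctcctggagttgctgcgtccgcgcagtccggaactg

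The listed start of E2f1 lies 466 bases and that of Cdc6 442 bases inside the gene span, so those windows do not reach the outer end of the gene, and letters there were not searched. Of 63 member windows 15 lie wholly inside their gene. In the windows shown E2F letters occurred once each at Cdc6, E2f3, Mcm5 and Cdk1, and not at Ccnb1, E2f1 or either Ccnd3 start. The windows of E2f2, E2f8, Mcm10, Cdk14 and Cdk18, also lower with Dex but not shown, held no E2F letters. The table held 63 windows for 54 of the 66 genes. E2F letters were in 16 of them, 25.4%, against 7.8% of all 21263 protein-coding windows, and in 4 of 8 Mcm genes. CCAAT was in 32 windows, 50.8% against 38.2%, and in all 8 Mcm genes with a window. CHR letters were in 13, 20.6% against 16%. The GR element (GNACA and TGTNC with 3 free bases between them) and the STAT6 element (TTC and GAA with 4 free bases between them) were in 0 of 63, against 0.442% and 6.35% of all windows. All were searched on both strands, the E2F strings can overlap one another, and a match of letters is a description, not a bound site.

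Macrophage identity was checked at gene starts: 5 of 10 macrophage markers had an entry in the promoter table and all 5 (Cd68, Itgam, Lyz2, Mertk and Fcgr1) carried an H3K27ac peak. Their summed level was 774 to 920 CPM (each count relative to the library's total in peaks, scaled by TMM factors) with vehicle, 913 to 1040 with Cort, 887 to 1040 with Dex and 706 to 783 with IL4. No start peak was found at the markers in the table for fibroblasts (2), lymphoid cells (4) or erythroid cells (4). Neutrophil markers had a start peak at 2 of 6 genes, with a sum of 7.12 to 15.5 CPM over all libraries, and dendritic markers at 1 of 5, Xcr1. The Xcr1 peak had 35.6 to 61.5 CPM with vehicle and 16.5 to 28.2 with IL4, and its part in the IL4 results was not tested. Counts in peaks ran from 6829787 to 15695771 per H3K27ac library and from 900063 to 1981582 per GR library, and cell cycle peaks held 0.48% to 0.538% and 0.0305% to 0.133% of them.

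Of 293 H3K27ac peaks with enough counts to test, 5 rose and 0 fell with Cort (edgeR, adjusted p under 0.05 over all 59881 tested peaks), where 1.18% of all peaks rose and 0.376% fell. With Dex 7 rose and 9 fell, where 2.9% and 2.35% of all peaks did. With IL4 29 rose and 35 fell, where 14.7% and 12.9% did. The members' total shares of 1.71%, 5.46% and 21.8% stood near those of all peaks with the steroids (1.55% and 5.24%) and below that with IL4 (27.6%). Their median log2 changes were -0.04, -0.02 and -0.07, beside 0.003, 0.01 and -0.02 over all peaks. Of all called peaks 75.8% were higher with Cort and 55.2% with Dex, shares that became 63.2% and 45% with scaling by total counts, and 90.4% and 65.9% with scaling by low-count peaks. Total counts gave 4 member peaks higher and 1 lower with Cort, 7 and 14 with Dex, and 22 and 41 with IL4. Low-count peaks gave 5 and 0, 8 and 4, and 24 and 34. In a bulk sample, fewer cells in a given phase of the cycle and less acetylation per cell cannot be told apart.

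**Figure D1:**
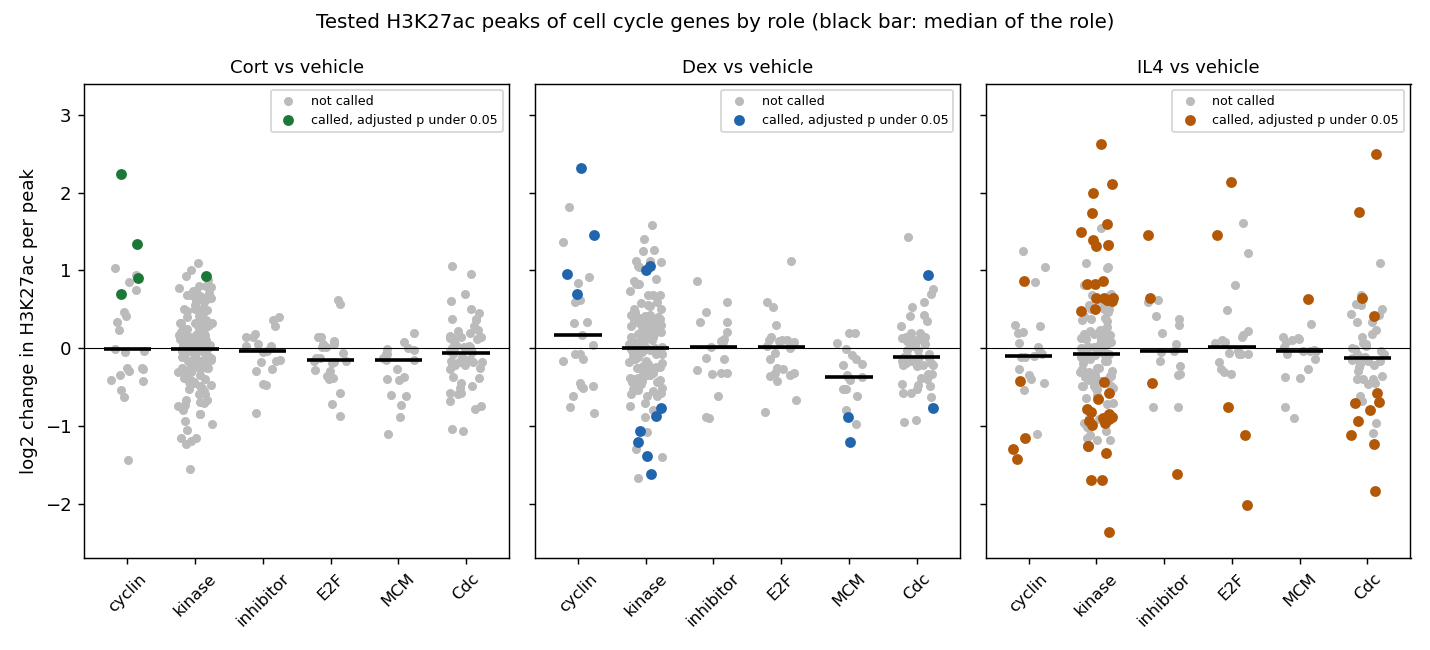
Log2 change in H3K27ac of each of the 293 tested peaks (points) against vehicle for Cort, Dex and IL4, by role of the gene, with coloured points for peaks called at an adjusted p under 0.05 and black bars for the median of the role. The 4 cyclin peaks called with Cort and the 4 called with Dex all lie above 0, and the 2 Mcm peaks called with Dex lie below it.

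Replicate numbers paired the H3K27ac libraries, and a fit with the number as a block made more calls. It called 18 peaks higher and 29 lower with Cort (6.44% and 6.13% of all peaks), 27 and 42 with Dex (9.91% and 10.3%) and 49 and 62 with IL4 (21.9% and 21.6%). All 5, 16 and 64 calls without the block were among them. The steroid counts rest on few libraries: without 1 library at a time the Cort count lay between 2 and 10 and the Dex count between 6 and 22. Without vehicle replicate 2 they were 2 and 6, and without vehicle replicate 3 they were 3 and 7. Without Cort replicates 1, 2 and 3 the Cort count was 3, 10 and 2, and without Dex replicate 1 or 3 the Dex count was 8. The IL4 count was 41, 42, 40 and 35 without vehicle replicates 2 and 3 and IL4 replicates 1 and 3.

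Among the cyclins the steroid calls without the block were all at D-type genes. Of 25 tested cyclin peaks, 4 rose with Cort and 4 with Dex, 3 of each at Ccnd3 and 1 at Ccnd1, and 0 fell. That was 16% with each steroid, where 1.55% and 5.24% of all peaks were called. The block called 6 higher and 4 lower with Dex (9.91% and 10.3% of all peaks), and 2 higher and 7 lower with IL4 (21.9% and 21.6%). With Dex its calls outside the D type were Ccnb1, Ccna2 and Ccne2 lower and Ccne1 higher. Without the block 4 cyclin peaks fell with IL4, each at Ccnd3, and 1 rose, at Ccne1. The median cyclin change was -0.01 with Cort, 0.17 with Dex and -0.10 with IL4.

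Ccnd3 encodes cyclin D3, an activator of Cdk4 and Cdk6, and spans 2 RefSeq starts 88.4 kb apart. The peak over its upstream start (chr17:47504351-47509757, beginning before the gene span and reaching into it) had 23.1, 27 and 12 CPM with vehicle, 92.3, 101 and 97.8 with Cort, 103, 103 and 103 with Dex, and 14.6, 16.7 and 11.1 with IL4. Every steroid library lay above every vehicle library, by more than 3 times, while the IL4 and vehicle libraries overlapped. The log2 change was 2.24 ± 0.24 (SE) with Cort (adjusted p = 0.000334) and 2.32 ± 0.24 with Dex (adjusted p = 0.000139). With IL4 it was -0.54 ± 0.24 (adjusted p = 0.113), and 0.018 in the fit with the replicate block.

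A GR peak of 394 bases lay inside it, 3.1 kb downstream of that start (chr17:47507943-47508336). Its GR signal was 15.4, 13.2, 15.1 and 16.8 CPM with vehicle, 113, 102, 77.7 and 104 with Cort, 108, 89.7, 88.9 and 90.6 with Dex, and 20.3, 24.5 and 27.3 with IL4. No steroid library reached down to the vehicle range. The log2 change was 2.70 ± 0.24 with Cort (adjusted p = 3.09e-05) and 2.63 ± 0.24 with Dex (adjusted p = 1.54e-05), and both calls were lost in batch 2 alone (0.147 and 0.0796). With IL4 it was 0.71 ± 0.26 (adjusted p = 0.405), although all 3 IL4 libraries lay above the 4 vehicle libraries.

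Along Ccnd3 the 3 acetylated peaks nearest the upstream start rose with both steroids. The next acetylated peak, centred 5.6 kb from the upstream start, rose by 1.34 ± 0.29 on the log2 scale with Cort and 1.46 ± 0.29 with Dex, and fell by 1.16 ± 0.33 with IL4 (adjusted p = 0.0178). The peak at 17.7 kb (chr17:47521202-47524247) had 36.0, 30.2 and 31.0 CPM with vehicle, 54.9, 47.1 and 56.2 with Cort, 53.6, 49.3 and 54.8 with Dex, and 23.7, 22.9 and 26.0 with IL4. The vehicle range lay between the others, with a log2 change of 0.70 ± 0.13 for each steroid and -0.42 ± 0.13 for IL4. Of 4 smaller peaks from 21.5 to 62.7 kb, none passed with a steroid without the block (0.32 to 1.37 with Dex). The peak at 21.9 kb was higher with Dex in the paired fit (adjusted p = 0.0933, 0.0323 with the block), and 1, at 21.5 kb, fell with IL4 by 1.30 ± 0.40.

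The peak over the downstream start (chr17:47592904-47597208) fell with IL4 alone among the 3 treatments, and its IL4 and steroid changes were not the same in the direct contrast below. It had 43.0, 52.8 and 36.2 CPM with vehicle, 48.3, 62.0 and 45 with Cort, 48.6, 58.9 and 40.9 with Dex, and 16.6, 18.2 and 14.4 with IL4. The steroid libraries overlapped the vehicle libraries, with log2 changes of 0.24 ± 0.19 (adjusted p = 0.645) and 0.17 ± 0.18 (adjusted p = 0.686). All IL4 libraries lay below them, with a log2 change of -1.42 ± 0.19 (adjusted p = 0.000174). The contrast between IL4 and Dex was -2.86 ± 0.25 at the upstream start and -1.59 ± 0.19 at the downstream start. The steroid calls at the upstream start, the IL4 call at the downstream start and the contrast at both held in all 14 alternative fits.

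**Figure D2:**
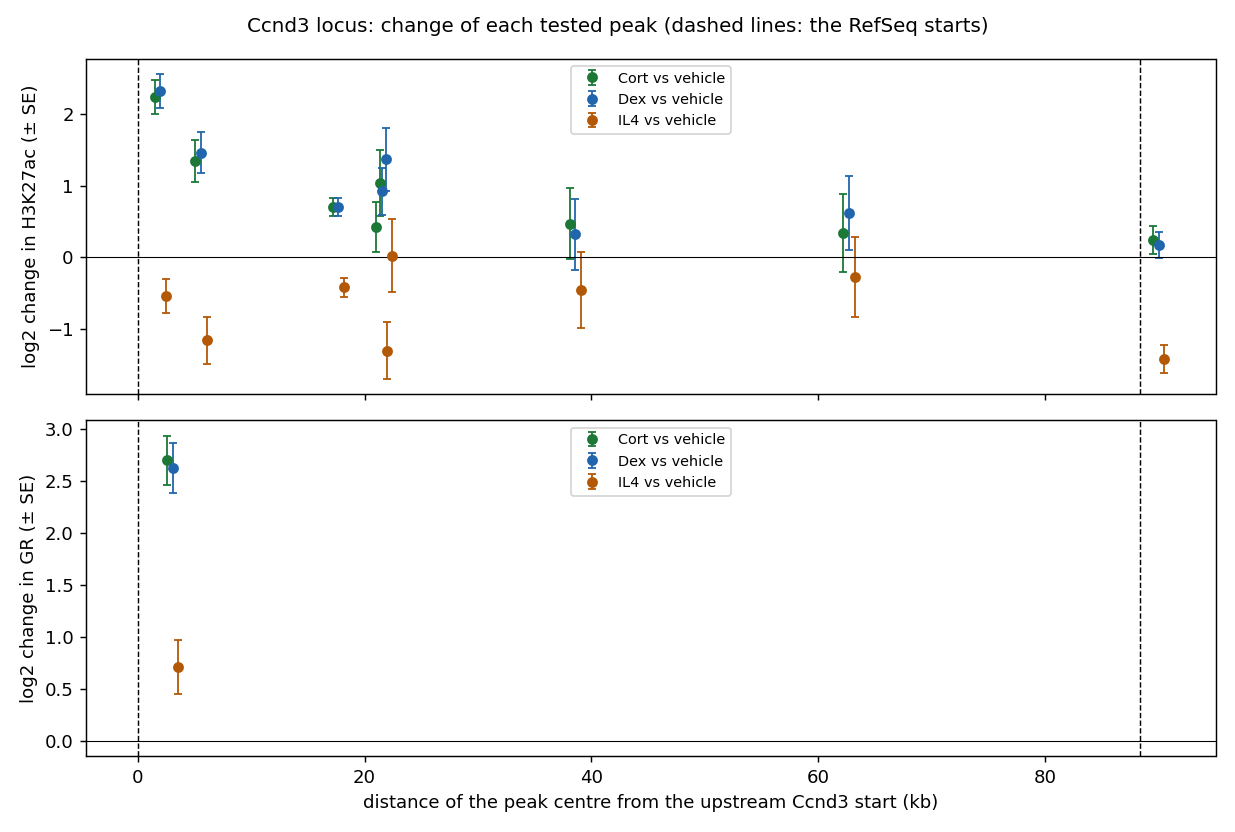
Log2 change against vehicle (points, whiskers SE) of the 8 tested H3K27ac peaks (upper panel) and the GR peak (lower panel) of Ccnd3 against the distance of the peak centre from the upstream start in kb, with dashed lines at the RefSeq starts. Cort and Dex points are at 2.24 and 2.32 beside the upstream start and at 0.24 and 0.17 at the downstream start, where the IL4 point is at -1.42.

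Ccnd1, which encodes cyclin D1, responded within the gene. Its peak at chr7:144931281-144933486 overlapped a GR peak and had 17.9, 16.4 and 19.3 CPM with vehicle, 31.4, 30.0 and 38.9 with Cort, 33.3, 30.5 and 40.6 with Dex, and 13.7, 13.0 and 15.4 with IL4. Steroid libraries lay above and IL4 libraries below all vehicle libraries. The log2 change was 0.90 ± 0.16 with Cort (adjusted p = 0.0124, 0.0713 at most among the alternatives), 0.96 ± 0.16 with Dex (adjusted p = 0.00409) and -0.35 ± 0.16 with IL4 (adjusted p = 0.131, 0.022 with the block). The Cort call was lost without vehicle replicate 2, without Cort replicate 3 and in a fit of the compared groups alone.

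The peak with most reads at an end of Ccnd1 was lower with both steroids in the paired fit. At chr7:144937665-144940696 it had 26.5, 23.1 and 19.4 CPM with vehicle, 14.6, 19.0 and 10.8 with Cort, 16.0, 16.2 and 8.61 with Dex, and 28.3, 25.6 and 25.4 with IL4. Every steroid library was below every vehicle library, with log2 changes of -0.63 ± 0.25 (adjusted p = 0.276) and -0.76 ± 0.25 (adjusted p = 0.102). With the block those adjusted p were 0.0098 and 0.0009.

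The other cyclins had no steroid call without the block. Ccne1, whose product drives entry into S phase with Cdk2, had 8.78, 12.8 and 9.66 CPM with vehicle and 18.2, 18.4 and 20.2 with IL4 at its start (chr7:38107597-38108678). The IL4 libraries lay above all others, with a log2 change of 0.86 ± 0.20 (adjusted p = 0.00667), and the Dex change was -0.14 ± 0.21. A peak 26.4 kb from Ccne1 (chr7:38070694-38071632) had 1.48, 0.572 and 0.495 CPM with vehicle and 1.83, 5.54 and 1.02 with Dex, which overlap, a change of 1.82 ± 0.67 (adjusted p = 0.141, 0.00499 with the block). Ccnb1, the mitotic cyclin B1, had 12.5, 11.9 and 9.41 CPM with vehicle and 9.04, 7.46 and 5.77 with Dex at its start (chr13:100785493-100786553). The groups did not overlap, the change was -0.61 ± 0.19 (adjusted p = 0.0904), and the adjusted p was 0.0095 with the block. Ccne2 and Ccna2, by their most read peaks at a gene end, changed with Dex by -0.49 ± 0.18 and -0.51 ± 0.25 (adjusted p = 0.137 and 0.275, and 0.023 for each with the block). Ccnb2 at its start gave -0.16 ± 0.20 with Dex and -0.11 ± 0.20 with IL4. Ccnd2 had only peaks of at most 2.1 CPM among those tested near its ends.

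**Figure D3:**
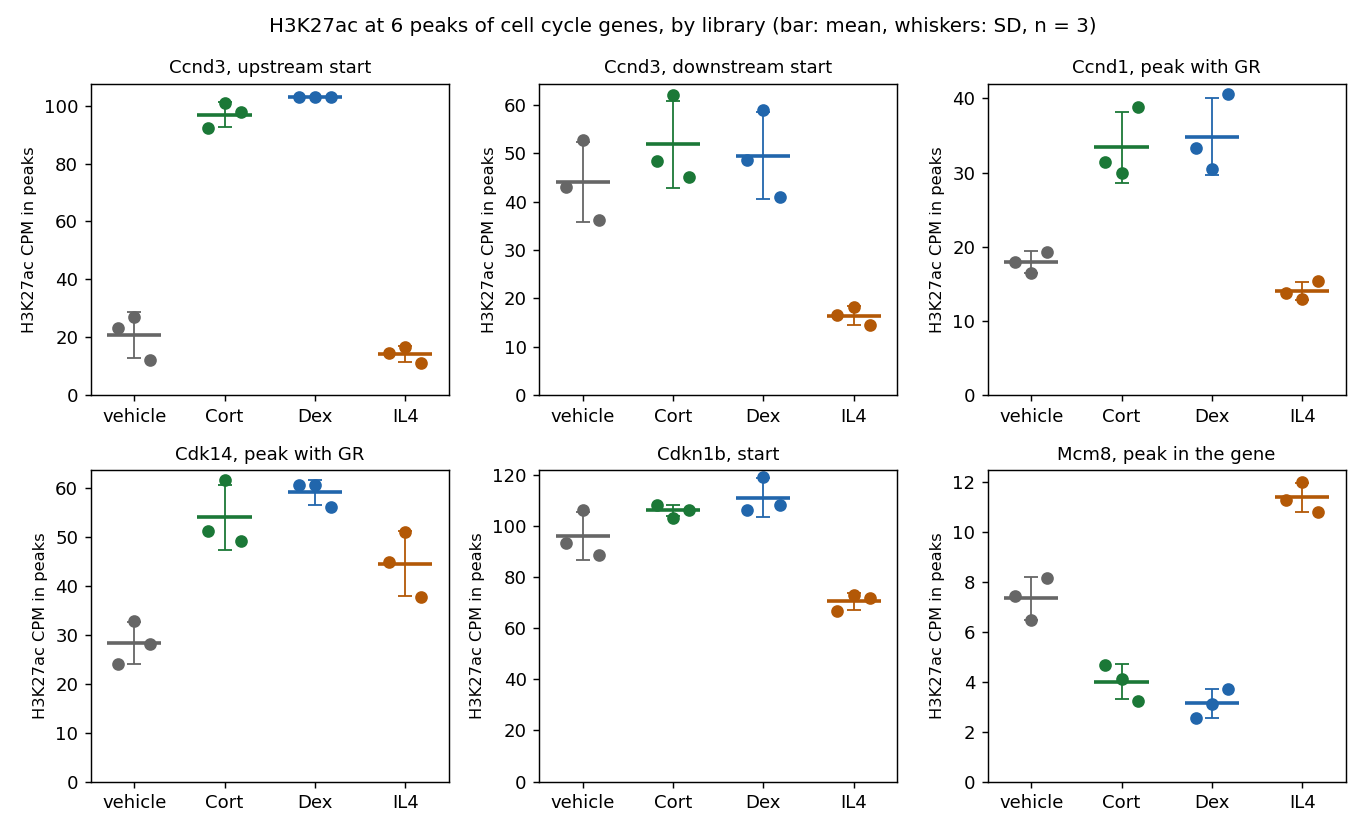
H3K27ac in CPM (vertical axis) in each library (points) by treatment at 6 peaks, with the mean (bar) and SD (whiskers, n = 3 per group). The upstream Ccnd3 start, the Ccnd1 peak and the Cdk14 peak with GR are high with both steroids, while the downstream Ccnd3 start and Cdkn1b are lowest with IL4 and Mcm8 is lowest with Dex.

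Kinase genes held 150 of the 293 tested peaks, at 17 genes. With Cort 1 peak rose, with Dex 2 rose and 6 fell, and with IL4 19 rose and 18 fell. These shares of 0.667%, 5.33% and 24.7% stood beside 1.55%, 5.24% and 27.6% of all peaks. The block called 8 higher and 16 lower with Cort (6.44% and 6.13% of all peaks). It called 14 and 18 with Dex (9.91% and 10.3%), and 31 and 33 with IL4 (21.9% and 21.6%). Of the 18 that fell with IL4, 8 were at Cdk19 and 4 at Cdk14, and of the 6 that fell with Dex, 4 and 2 were. Peaks of 1 gene share its chromatin and are not independent of each other.

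Cdk14, a kinase that partners cyclin Y, held the only kinase peak called with Cort. That peak (chr5:5319002-5321963, inside the gene and over a GR peak) had 24.1, 32.8 and 28.1 CPM with vehicle, 51.2, 61.7 and 49.2 with Cort, 60.5, 60.7 and 56.1 with Dex, and 44.9, 51.0 and 37.7 with IL4. All treated libraries lay above all vehicle libraries. The log2 change was 0.93 ± 0.16 with Cort (adjusted p = 0.00853), 1.06 ± 0.16 with Dex (adjusted p = 0.00186) and 0.65 ± 0.15 with IL4 (adjusted p = 0.00721). Elsewhere in the same gene peaks were lower: at chr5:5196632-5197554 the level was 3.71, 3.76 and 3.41 CPM with vehicle and 1.10, 1.93 and 1.09 with Dex, a change of -1.38 ± 0.31 (adjusted p = 0.0217). The Cdk14 start gave -0.59 ± 0.26 with each steroid (adjusted p = 0.338 with Cort and 0.234 with Dex, and 0.0009 and 0.00044 with the block).

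Cdk19, a kinase of the Mediator complex that links enhancers to RNA polymerase, was lower over its body at several peaks. Its tested peaks numbered 25, of which 8 fell and 3 rose with IL4, where 12.9% and 14.7% of all peaks did. With Dex 4 fell, where 2.35% of all peaks did. The block called 9 lower with each steroid, where 6.13% of all peaks were with Cort and 10.3% with Dex. It called none of them higher, where 6.44% and 9.91% of all peaks were. The peak at chr10:40380682-40384765 had 27.3, 68.1 and 39.6 CPM with vehicle, 14.4, 32.0 and 10.6 with Cort, 13.2, 19.3 and 11.7 with Dex, and 9.47, 10.0 and 6.89 with IL4. Vehicle replicate 2 was the highest library, and Dex and IL4 libraries were below the lowest vehicle library. The log2 change was -1.61 ± 0.39 with Dex (adjusted p = 0.0316) and -2.36 ± 0.41 with IL4 (adjusted p = 0.000983). The Dex call was lost without vehicle replicate 2 or 3 and without Dex replicate 1 or 3 (adjusted p up to 0.134).

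The D cyclin partners Cdk4 and Cdk6 rose with IL4 at their starts. The Cdk4 start (chr10:127062143-127065097) had 28.9, 32.4 and 32.2 CPM with vehicle and 42.2, 41.2 and 49.1 with IL4, with no overlap and a change of 0.50 ± 0.15 (adjusted p = 0.0274). That call was lost with scaling by low-count peaks and without IL4 replicate 3 or any 1 of the vehicle libraries (adjusted p up to 0.161). The Cdk6 start (chr5:3340467-3346213) had 69.3, 68.3 and 64.6 CPM with vehicle, 77.4, 100 and 75.4 with Dex, and 94.1, 112 and 110 with IL4. Its change was 0.65 ± 0.14 with IL4 (adjusted p = 0.00416) and 0.32 ± 0.14 with Dex (adjusted p = 0.217, 0.022 with the block).

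Inside Cdk6 a long acetylated peak lay over a GR peak (chr5:3488093-3504800). Its levels were 217, 223 and 207 CPM with vehicle, 299, 372 and 237 with Cort, 292, 402 and 225 with Dex, and 222, 248 and 201 with IL4. Steroid libraries were all above vehicle libraries but spread widely, and the changes of 0.49 ± 0.20 and 0.50 ± 0.20 had adjusted p = 0.28 and 0.166. With the block they were 0.00275 and 0.00133. Over the 30 tested peaks of Cdk6 the block called 6 higher and 1 lower with Dex (9.91% and 10.3% of all peaks).

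The mitotic and S phase kinases were not called at a start without the block. Cdk1, the mitotic kinase, had 40.9, 38.3 and 35.4 CPM with vehicle, 38.5, 39.4 and 29.0 with Dex, and 32.6, 26.9 and 29.9 with IL4 (chr10:69350452-69353591). Its change was -0.10 ± 0.15 with Dex and -0.36 ± 0.16 with IL4 (adjusted p = 0.104, 0.015 with the block). A peak inside Cdk1 (chr10:69342677-69343775) fell with IL4 by 0.84 ± 0.26 on the log2 scale (adjusted p = 0.0298), a call lost without vehicle or IL4 replicate 2 or 3 (up to 0.145). Cdk2, the partner of cyclin E, had 1 tested peak in the gene with changes of -0.04 ± 0.22 with Dex and -0.14 ± 0.22 with IL4, and its start peak belongs by the rule to Pmel.

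Other kinases answered IL4 at the start: Cdk18 had 135, 117 and 159 CPM with vehicle, 92.6, 86.7 and 126 with Dex, and 224, 233 and 267 with IL4. The IL4 change was 0.82 ± 0.19 (adjusted p = 0.00616), and with Dex, where groups overlapped, it was -0.43 ± 0.19 (adjusted p = 0.227, 0.00089 with the block). With the block, 6 of 14 kinase start peaks were higher with IL4 (Cdk4, Cdk6, Cdk10, Cdk15, Cdk18 and Cdk20) and 2 were lower (Cdk1 and Cdk14), where 16.6% and 11.4% of all start peaks were. Cdk17, which has no entry in the promoter table, fell at chr10:93122693-93125382, 35.5 kb away, by 1.26 ± 0.16 with IL4 (adjusted p = 9.88e-05) and rose at the peak over an end of the gene (chr10:93159779-93164836) by 0.61 ± 0.11 (adjusted p = 0.0013). Cdk20 rose with Dex at chr13:64425419-64427316, over a GR peak, from 12.5, 8.99 and 11.8 CPM to 22.6, 18.9 and 24.9, a change of 1.00 ± 0.19 (adjusted p = 0.00826), and fell there with IL4 by 0.57 ± 0.19 (adjusted p = 0.0424). The IL4 call was lost without vehicle replicate 1 or 3 or IL4 replicate 2 or 3 (up to 0.164). The transcription kinases Cdk7, Cdk9, Cdk12 and Cdk13 had 0 start peaks called in any of these 3 contrasts, with or without the block.

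Inhibitor genes had 19 tested peaks, 0 of which were called with Cort or Dex, while 2 rose and 2 fell with IL4. The IL4 share of 21.1% stood beside 27.6% of all peaks. Unadjusted p were under 0.05 at 1 peak with Cort and 3 with Dex. The block called 1 higher with Cort (6.44% of all peaks) and 1 higher and 2 lower with Dex (9.91% and 10.3%). With IL4 it called 3 higher and 4 lower (21.9% and 21.6%). Cdkn1a and Cdkn1b, which inhibit Cdk2 with cyclin E, moved apart with IL4.

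Cdkn1a rose with IL4 at its start (chr17:29092938-29096354). It had 40.9, 42.8 and 37.0 CPM with vehicle, 48.8, 53.4 and 56.5 with Cort, 50.6, 66.5 and 50.4 with Dex, and 61.6, 64.3 and 61.7 with IL4. All treated libraries lay above vehicle, with changes of 0.40 ± 0.13 with Cort (adjusted p = 0.192, 0.014 with the block), 0.47 ± 0.13 with Dex (0.0601, 0.0022 with the block) and 0.64 ± 0.13 with IL4 (0.00354). Cdkn1b fell with IL4 at its start (chr6:134919471-134924753), from 93.1, 106 and 88.6 CPM to 66.7, 73.0 and 71.8, against 106, 119 and 108 with Dex. The IL4 libraries were below all others, by -0.45 ± 0.11 against vehicle (adjusted p = 0.00906, 0.0643 with scaling by low-count peaks). A small peak 16.8 kb from Cdkn1b fell with IL4 by 1.61 ± 0.44 (adjusted p = 0.0151), a call lost without vehicle replicate 1 or IL4 replicate 2.

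The Ink4 family, inhibitors of Cdk4 and Cdk6, was called at its starts in none of the 3 contrasts. Cdkn2a changed by -0.33 ± 0.20 with Dex and -0.34 ± 0.20 with IL4, Cdkn2c by -0.12 ± 0.12 and -0.03 ± 0.12, and Cdkn2d by 0.08 ± 0.17 and -0.16 ± 0.17. Cdkn2b had at most 2.3 CPM at its start, and a small peak within the gene rose with IL4, from 0.371, 0.327 and 0.433 CPM to 0.984, 1.05 and 1.15. That change of 1.46 ± 0.39 (adjusted p = 0.0133) was lost with DESeq2 and without vehicle replicate 2 or IL4 replicate 3. Cdkn1c had no H3K27ac peak over its span.

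E2F genes had 24 tested peaks, of which 0 were called with Cort or Dex, and 2 rose and 3 fell with IL4. The IL4 share was 20.8%, where 27.6% of all peaks were called. The unadjusted p was under 0.05 at 2 peaks with Cort and 6 with Dex. The block called 0 higher and 2 lower with Cort (6.44% and 6.13% of all peaks). It called 1 and 6 with Dex (9.91% and 10.3%), and 5 and 4 with IL4 (21.9% and 21.6%). The IL4 changes lay away from the starts: a peak in E2f5 (chr3:14591637-14593171) went from 9.02, 19.1 and 17.7 CPM to 3.44, 4.53 and 3.45, a change of -2.01 ± 0.30 (adjusted p = 0.000355). E2f8, a repressor of the family, had a peak 5.74 kb away that rose by 2.13 ± 0.46 and another 26.2 kb away that fell by 1.12 ± 0.17. E2f6 rose by 1.46 ± 0.27 at a peak 20.3 kb away, and E2f3 fell by 0.76 ± 0.21 at a peak inside the gene, a call lost without vehicle replicate 2 or IL4 replicate 1. E2f4 and E2f7 had 0 peaks called in the 3 contrasts without the block, which called 1 E2f4 peak higher with Dex and 1 E2f7 peak higher with IL4.

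Mcm genes had 19 tested peaks, of which 2 fell with Dex and 0 rose, and 0 were called with Cort (6 at an unadjusted p under 0.05). Their median log2 change with Dex was -0.37, beside 0.01 over all peaks, and with Cort -0.15 beside 0.003. With IL4 1 rose and 0 fell, with a median of -0.03. Of all peaks 2.35% fell and 2.9% rose with Dex without the block, and 12.9% fell and 14.7% rose with IL4. The block called 5 Mcm peaks lower and 0 higher with Cort (6.13% and 6.44% of all peaks). It called 5 and 0 with Dex (10.3% and 9.91%), and 3 and 1 with IL4 (21.6% and 21.9%).

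Mcm8 is a helicase of recombination repair. Its peak over an end of the gene span, reaching beyond it (chr2:132843318-132845041), had 7.42, 6.46 and 8.17 CPM with vehicle, 4.67, 4.11 and 3.25 with Cort, 2.56, 3.13 and 3.72 with Dex, and 11.3, 12 and 10.8 with IL4. The vehicle libraries stood between the steroid and the IL4 libraries without overlap. The change was -0.88 ± 0.21 with Cort (adjusted p = 0.0541, 0.0048 with the block), -1.21 ± 0.21 with Dex (adjusted p = 0.00502) and 0.63 ± 0.20 with IL4 (adjusted p = 0.0293). The Dex call held in all 14 alternatives, and the IL4 call was lost in 7, among them without vehicle replicate 1 or 2 or any 1 of the IL4 libraries (up to 0.11).

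Mcm5, a subunit of the replicative helicase, had 2 peaks at its start. The first (chr8:75108699-75109435) had 11.5, 11.4 and 9.10 CPM with vehicle, 5.66, 8.49 and 6.50 with Cort, 7.21, 6.90 and 4.38 with Dex, and 8.61, 9.79 and 8.04 with IL4. Its Dex change was -0.80 ± 0.23 (adjusted p = 0.0616, 0.0017 with the block). The second (chr8:75109527-75110284) had 5.44, 5.81 and 4.33 CPM with vehicle and 2.93, 2.81 and 2.70 with Dex. Its change of -0.88 ± 0.24 had an adjusted p that rounds to 0.05 and lies just under the threshold, and the call was lost in 8 alternatives, among them without any 1 of the vehicle or Dex libraries (adjusted p up to 0.165). The other subunits at their starts gave Dex changes of -0.21 ± 0.17 (Mcm2), -0.41 ± 0.19 (Mcm3), -0.20 ± 0.20 (Mcm6) and 0.07 ± 0.14 (Mcm7), none of which passed.

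Cdc genes had 56 tested peaks, 0 called with Cort (10 at an unadjusted p under 0.05), 1 higher and 1 lower with Dex, and 4 higher and 8 lower with IL4. The Dex and IL4 shares were 3.57% and 21.4%, beside 5.24% and 27.6% of all peaks. The block called 5 higher and 5 lower with Cort (6.44% and 6.13% of all peaks), and 5 and 7 with Dex (9.91% and 10.3%). Of the replication members, Cdc6 had 5.69, 4.82 and 3.47 CPM with vehicle and 2.32, 3.13 and 1.82 with Dex at its start (chr11:98907802-98908558). Its change was -0.92 ± 0.32 (adjusted p = 0.123, 0.014 with the block). A peak further into Cdc6 (chr11:98915215-98919271) had 78.0, 75.1 and 77.9 CPM with vehicle and 47.1, 48.7 and 58.5 with IL4, where it fell by 0.58 ± 0.15 on the log2 scale (adjusted p = 0.0125), a call lost without vehicle replicate 3 or IL4 replicate 1. Cdc7, the kinase that fires origins, rose with IL4 at a peak 3.82 kb away (chr5:106958752-106960494) from 5.56, 3.60 and 5.51 CPM to 15.5, 14.1 and 19.5, by 1.75 ± 0.24 (adjusted p = 0.000225). Cdc45, a partner of the helicase, had a peak with 4.20, 2.21 and 3.72 CPM with vehicle and 8.55, 5.30 and 13.2 with Dex, a change of 1.43 ± 0.40 (adjusted p = 0.0556, 1.3e-05 with the block).

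Several Cdc members with calls serve other processes. Cdc123, which assists assembly of a translation initiation factor, fell with IL4 at 5 of its 8 peaks, where 12.9% of all peaks fell. It fell most at chr2:5823631-5826313 from 34.9, 53.4 and 37.8 CPM to 12.8, 11.2 and 11.3, by 1.84 ± 0.20 (adjusted p = 3.62e-05). With Dex that peak changed by -0.77 (adjusted p = 0.0327), a call lost in 6 alternatives, among them without vehicle replicate 2 or 3 or Dex replicate 1 or 3 (up to 0.136). Cdc40, a splicing factor, rose with Dex by 0.94 ± 0.18 (adjusted p = 0.00892) and fell with IL4 by 0.69 ± 0.19 at the same peak (chr10:40846516-40848801). The Dex call was lost without vehicle replicate 2 and the IL4 call without vehicle replicate 3 or IL4 replicate 2. Cdc23, a subunit of the anaphase promoting complex, rose with IL4 at a peak 17.6 kb away by 2.49 ± 0.35 (adjusted p = 0.000239). Cdc20, which activates that complex, changed at its start by -0.36 ± 0.19 with Dex and -0.22 ± 0.19 with IL4, and neither passed.

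Peaks over a gene start were also counted by themselves. With Dex the 52 tested peaks over a member's own start had a median change of -0.03, beside 0.07 over all start peaks, with 27 below and 25 above 0, and the median was -0.34 for E2F, -0.31 for Mcm, -0.15 for cyclin, 0.05 for inhibitor and 0.07 for kinase and for Cdc starts. Of 52 tested peaks over a member's own start (46 genes), the block called 11 lower with Dex, 21.2%, where 4.15% of all 7957 start peaks were lower. It called 4 higher, 7.69%, where 9.73% of all start peaks were. The lower ones were at E2f1, E2f2, E2f3, E2f8, Mcm5 (2 peaks), Mcm10, Ccnb1, Cdc6, Cdk14 and Cdk18, and the higher ones at Ccnd3, Cdk6, Cdkn1a and Cdc40. By role they were 4 of 6 E2F start peaks, 3 of 8 Mcm, 1 of 6 cyclin, 2 of 14 kinase, 1 of 10 Cdc and 0 of 8 inhibitor peaks.

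This count of 11 was chosen after the data were seen and needs the pairing. Without the block 1 start peak was lower and 1 higher, where 0.528% and 2% of all start peaks were. Without the libraries numbered 1 the block called 2 lower and 2 higher, where 128 and 322 of all 7963 start peaks were. Without those numbered 2 it called 10 and 3, where 407 and 965 of 7908 were. Without those numbered 3 it called 8 and 2, where 158 and 347 of 7934 were. With DESeq2 and the block it was 10 lower and 4 higher, where 259 and 622 of all 7957 start peaks were. With total-count scaling it was 12 and 3 (446 and 603 of all), and with scaling by low-count peaks 8 and 4 (207 and 863 of all).

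Single start peaks show the size of it. The E2f2 start (chr4:136171658-136176123) had 73.6, 63.0 and 56.3 CPM with vehicle, 57.6, 46.6 and 53.3 with Cort, 52.6, 43.1 and 47.9 with Dex, and 67.0, 53.2 and 63.9 with IL4. All Dex libraries lay below all vehicle libraries, by -0.42 ± 0.15 (adjusted p = 0.117, 0.0032 with the block). E2f1, the factor that drives S phase genes, had 32.0, 35.5 and 33.7 CPM with vehicle and 23.8, 23.4 and 31.9 with Dex at its start (chr2:154567737-154569897), without overlap, a change of -0.36 ± 0.16 (adjusted p = 0.228, 0.035 with the block). At Mcm10, which acts in the start of replication, the level was 22.6, 36.5 and 22.5 CPM with vehicle and 14.4, 26.9 and 15.1 with Dex. There the groups overlapped, the library numbered 2 was the highest in each, and the change of -0.53 ± 0.33 had an adjusted p of 0.41 without and 0.0016 with the block.

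**Figure D4:**
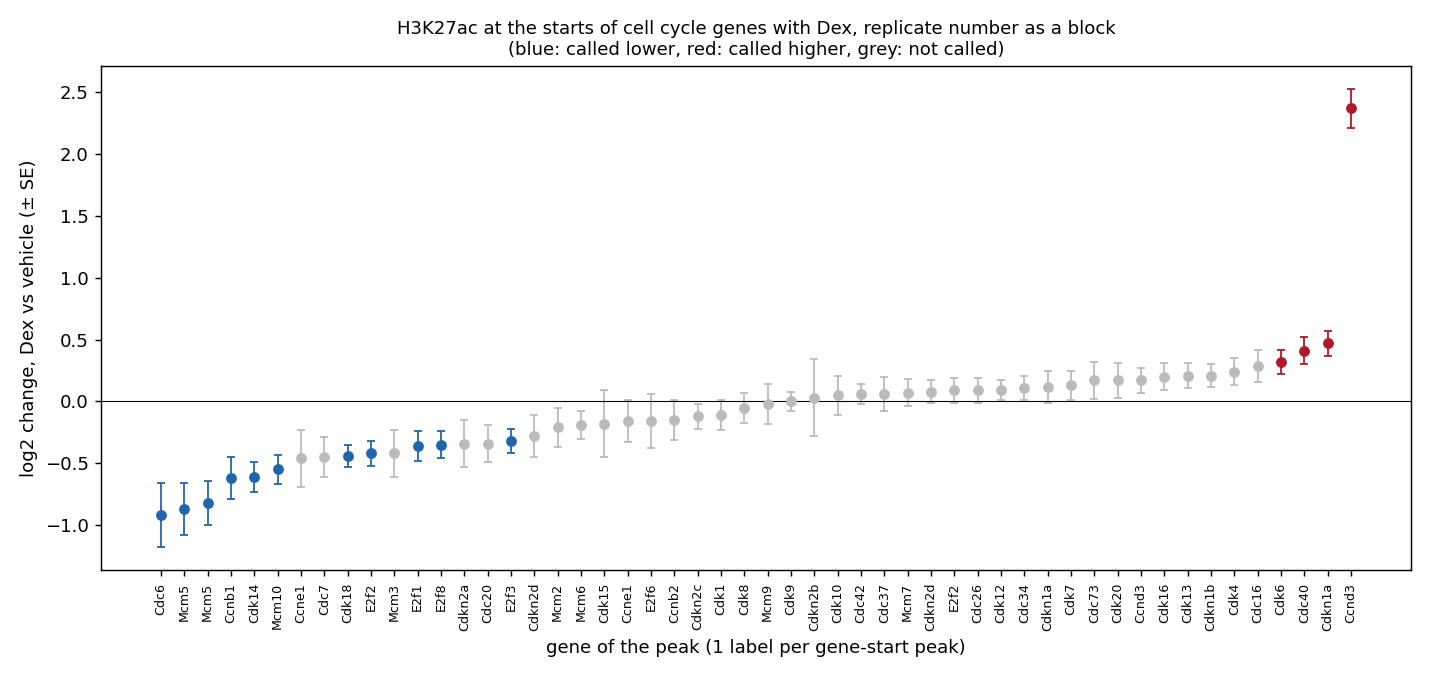
Log2 change with Dex against vehicle in the fit with the replicate block (points, whiskers SE) at the 52 tested start peaks of cell cycle genes, in order of change. The 11 blue points called lower hold E2f1, E2f2, E2f3, E2f8, Mcm5 and Mcm10, and Ccnd3 stands apart at the top among the 4 red points called higher.

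With Cort the block called 4 start peaks higher (Ccnd3, Cdk6, Cdkn1a and Cdc40) and 4 lower (Mcm5, Mcm10, Cdk14 and Cdk18), where 6.31% and 1.99% of all start peaks were. The Cort and Dex comparisons share the vehicle libraries. Without the block 1 start peak was higher and 0 lower with Cort (0.855% and 0.088% of all), and with IL4 7 and 2 (8.77% and 5.42%). Without the libraries numbered 1 the block called 1 higher and 0 lower with Cort, where 180 and 39 of all 7963 start peaks were. Without those numbered 3 it called 1 and 1, where 162 and 47 of 7934 were. With IL4 the block called 9 higher and 6 lower (16.6% and 11.4%), and no E2F start peak was among them. The 12 member start peaks of genes with E2F letters in a RefSeq window had a median Dex change of -0.32, and 4 of them, 33.3%, were lower with the block, beside 7 of 40, 17.5%, of those without. Over all genes the shares were 4.51% of 1064 with such letters and 4.09% of 6893 without, with medians of 0.05 and 0.08.

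GR peaks lay at 20 of the 66 cell cycle genes, and at 4417 of all 21900 protein-coding genes. In GR 2 libraries stood apart. Cort replicate 4 exceeded every other library by more than 3 times at 13 of 38 member peaks, 34.2%, and at 26.3% of all GR peaks, but of those 13 only 2 could be tested (Cdk1 and Mcm5) and neither was called. Vehicle replicate 4 had a TMM factor of 0.391, where the others had 0.733 to 1.73. Of the 38 peaks 19 at 13 genes had enough counts to test, and none of these lay over a start of its own gene. 

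With Cort 3 GR peaks rose and 2 fell, where 12.8% of all tested GR peaks rose and 14.9% fell, and with Dex 3 rose and 3 fell, where 14.7% and 15.6% did. The members' shares of 26.3% and 31.6% stand near those of all peaks, 27.6% and 30.3%. The higher ones, at Ccnd3, Cdk14 and Cdk6, each overlapped an acetylated peak, and the lower ones, at Cdk8, Cdc42 and, with Dex, Cdkn1a, did not. Of all GR peaks that rose with Cort 650 of 661 overlapped acetylation, and of those that fell 634 of 770 did not. The batches differed: in batch 1 alone 2 rose and 2 fell with each steroid, and in batch 2 alone 0 of all GR peaks passed, although 1464 with Cort and 1212 with Dex had an unadjusted p under 0.05. With total counts as the scale the median change of all GR peaks was 0.94 with Cort and 0.86 with Dex. With TMM factors it was 0.17 and -0.13. On the total-count scale 4 and 6 member peaks were higher and 0 lower. Of all GR peaks 1501 and 1945 were higher there and 24 and 23 lower. Without 1 library at a time the Cort count was 2 to 7, with 3 calls left without vehicle replicate 2 or Cort replicate 1 and 2 without vehicle replicate 4.

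Beside Ccnd3, GR rose at Cdk14 (chr5:5320364-5320469), where CPM were 1.40, 2.21, 1.26 and 0 with vehicle, 4.59, 2.92, 4.47 and 5.03 with Cort, 4.39, 6.72, 6.47 and 4.60 with Dex, and 4.74, 3.97 and 5.17 with IL4. All treated libraries lay above the 4 vehicle libraries, at low counts. The change was 1.70 ± 0.50 with Cort (adjusted p = 0.0223), 2.08 ± 0.49 with Dex (adjusted p = 0.00487) and 1.81 ± 0.56 with IL4 (adjusted p = 0.405). The Cort call was lost with DESeq2 and without Cort or vehicle replicate 4. This peak had enough counts to test in 14 alternatives with Cort and 11 with Dex, where the GR peak of Ccnd3 had 20. With the block it was not tested. A peak with so few counts can reach the test only through the group where it is high, which weakens both calls.

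In Cdk6 (chr5:3502519-3502900) GR was 21.0, 8.82, 20.1 and 12.9 CPM with vehicle, 45.4, 42.9, 16.8 and 26.2 with Cort, 34.6, 44.1, 38.8 and 37.2 with Dex, and 16.2, 17.2 and 11.8 with IL4. Dex libraries were all above vehicle, by 1.28 ± 0.35 (adjusted p = 0.0119), and Cort replicate 3 was within the vehicle range. The Cort change of 0.99 ± 0.35 had an adjusted p of 0.0481, 0.063 with the block, and was lost in 11 alternatives (adjusted p up to 0.732). The GR peak in Ccnd1 (chr7:144932406-144932636) gave 0.45 ± 0.35 with Cort and 0.52 ± 0.35 with Dex (adjusted p = 0.345 and 0.29).

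**Figure D5:**
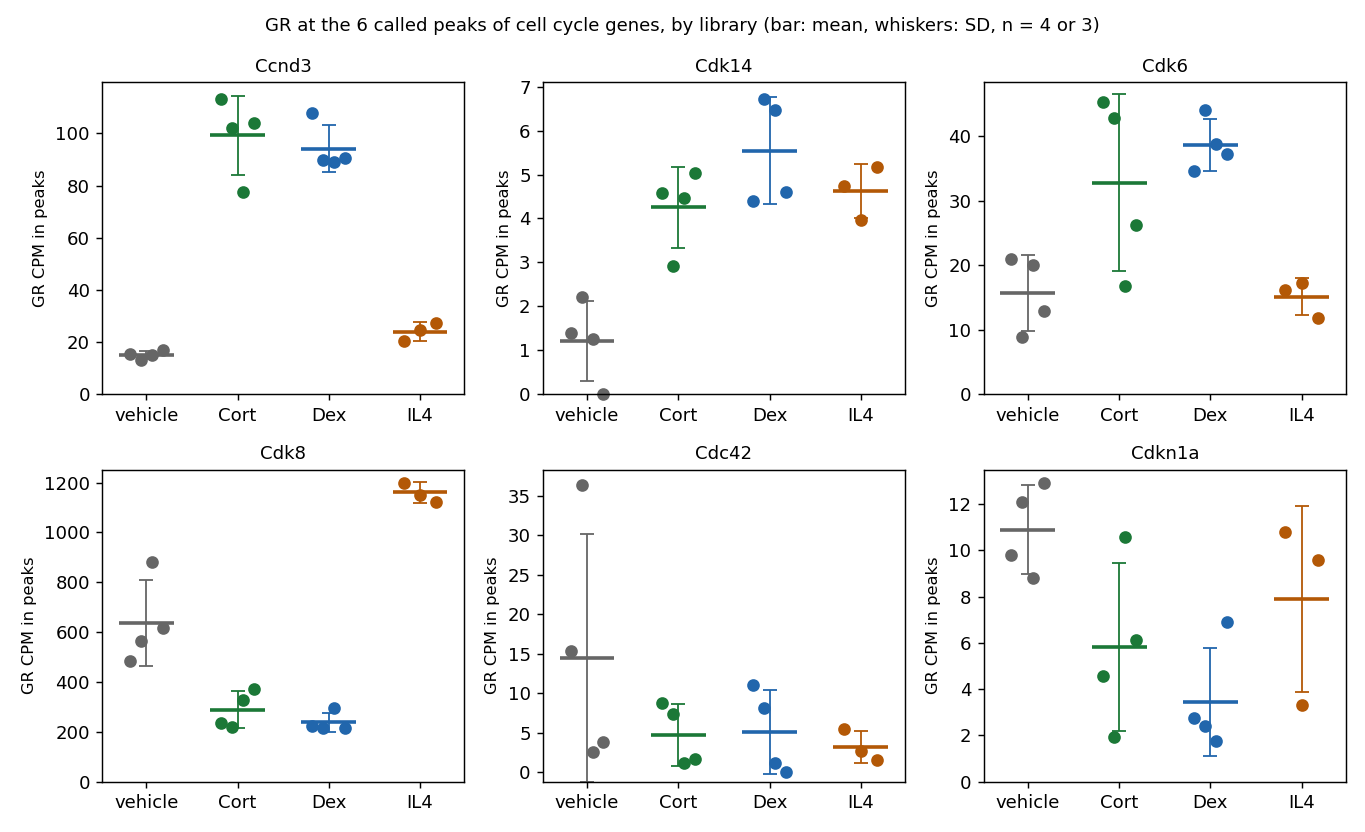
GR in CPM (vertical axis) in each library (points) by treatment at the 6 called peaks of cell cycle genes, with the mean (bar) and SD (whiskers, n = 4, or 3 for IL4). Ccnd3, Cdk14 and Cdk6 are higher with Dex than with vehicle in every library, and Cdk8 is lower with both steroids in every library.

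The GR peak with most reads was in Cdk8, the Mediator kinase that is a close relative of Cdk19 (chr5:146260962-146261385). It had 483, 564, 883 and 615 CPM with vehicle, 235, 218, 326 and 373 with Cort, 222, 217, 295 and 215 with Dex, and 1200, 1150 and 1120 with IL4. Steroid libraries were all below and IL4 libraries all above the vehicle libraries, and no acetylated peak overlapped it. The change was -1.15 ± 0.18 with Cort (adjusted p = 0.000794) and -1.40 ± 0.18 with Dex (adjusted p = 0.000165), and 0.66 ± 0.21 with IL4 (adjusted p = 0.405). The steroid calls were lost with total counts as the scale and in batch 2 alone, and over all alternatives the changes ran from -1.31 to -0.41 with Cort and from -1.59 to -0.42 with Dex.

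Fewer alternatives kept the lower GR calls at Cdc42 and Cdkn1a. In Cdc42, which acts on the actin cytoskeleton (chr4:137320340-137320531), GR was 15.4, 36.4, 2.51 and 3.87 CPM with vehicle, 8.71, 7.31, 1.12 and 1.68 with Cort, and 11, 8.15, 1.18 and 0 with Dex. The groups overlapped across batches, with changes of -1.55 ± 0.48 and -1.61 ± 0.47, and the calls were lost in 8 and 5 alternatives, both without vehicle replicate 2 (adjusted p up to 0.287 and 0.386). No other tested GR peak of Cdc42 passed with either steroid. Their changes ran from -1.32 ± 0.56 to -0.20 ± 0.40 with Cort and from -1.08 ± 0.54 to -0.28 ± 0.39 with Dex. At Cdkn1a, 3.77 kb from the gene (chr17:29104489-29104584), GR was 9.81, 12.1, 8.80 and 12.9 CPM with vehicle and 2.74, 2.40, 1.77 and 6.90 with Dex. The Dex libraries were below all vehicle libraries, by -1.62 ± 0.49 (adjusted p = 0.022). The call was lost in 7 alternatives, among them without vehicle replicate 2 or 4 or Dex replicate 2 or 3 (up to 0.395). Neither other tested GR peak of Cdkn1a passed with Dex. The one inside the gene (chr17:29094698-29094785) changed the other way, by 2.28 ± 0.89 (adjusted p = 0.066), at low counts in overlapping groups. The one 3.24 kb away changed by -0.70 ± 0.42 (adjusted p = 0.227).

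With IL4 edgeR called 0 GR peaks among members and 0 of all 5183, with an unadjusted p under 0.05 at 3 and 617. DESeq2 called 1 member, Cdk8, higher, and 25 of all peaks higher and 166 lower. All IL4 libraries are in batch 2.

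Of 13 tested member H3K27ac peaks that overlapped a GR peak by at least 1 base, 3 rose and 0 fell with Cort (23.1%, where 9.96% of all 3905 such peaks were called). With Dex 4 rose and 1 fell (38.5%, where 18.2% of such peaks were called), namely Ccnd3, Ccnd1, Cdk14 and Cdk20 upward and Cdk19 downward. The Cdk19 change there was -1.21 (adjusted p = 0.0253), a call lost without vehicle replicate 2 or 3 or Dex replicate 1 or 3 (up to 0.104). With IL4 2 rose and 3 fell (38.5% and 32.1%). Among the 280 member peaks with no GR peak, 2 rose with Cort, 3 rose and 8 fell with Dex, and 27 rose and 32 fell with IL4 (0.714%, 3.93% and 21.1%, where 0.965%, 4.34% and 27.3% of all 55976 such peaks were called). Of these 280 the block called 12 higher and 27 lower with Cort and 20 and 39 with Dex. Among all 55976 such peaks it called 2675 and 3509 with Cort and 4558 and 5918 with Dex. Of the 13 over a GR peak it called 6 higher and 2 lower with Cort and 7 and 3 with Dex. Among all 3905 such peaks it called 1183 and 164 with Cort and 1379 and 276 with Dex.

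Cort and Dex were given at different doses, and their values stand side by side above. No member and no other peak was called between them by edgeR, with or without the block, or by DESeq2, and the unadjusted p was under 0.05 at 1 of 293 member peaks and 793 of all. At the upstream Ccnd3 start the Dex minus Cort difference was 0.09, with a 95% interval from -0.40 to 0.57. At Mcm8 it was -0.33, from -0.80 to 0.13, and at Ccnb1 -0.36, from -0.78 to 0.06. The interval lay within 1 log2 unit of 0 on both sides at 174 member peaks, 59.4%, so larger differences are not bounded at the rest.

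IL4 and Dex, compared directly, parted at 57 member peaks, 26 higher and 31 lower with IL4, where 14.6% and 12.1% of all peaks were. The block called 54 and 50 (21.5% and 21.2%). Of 25 cyclin peaks 7 were lower with IL4 and 2 higher, and of 24 E2F peaks 4 were higher and 2 lower. With the block these were 8 and 6 of the cyclin peaks and 9 and 4 of the E2F peaks. The Ccne1 start was higher with IL4 by 1.00 ± 0.20 (adjusted p = 0.00274), the Cdk18 start by 1.25 ± 0.19 (adjusted p = 0.000382), the Mcm8 peak by 1.84 ± 0.21 (adjusted p = 3.84e-05) and the second Mcm5 start peak by 0.83 ± 0.24 (adjusted p = 0.0199). Lower were the Cdkn1b start by -0.65 ± 0.11 (adjusted p = 0.000789) and the Ccnd1 peak with GR by -1.31 ± 0.16 (adjusted p = 7.44e-05).

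Without treatment the starts differed in acetylation per length. Over the 54 genes with a peak at a start, or at a gene end where the promoter table has no entry, the vehicle level had a median of 10.6 CPM per kb, beside 10.2 over all 7957 start peaks. Highest were the transcription kinases Cdk12 at 26.2 ± 4.54 (SD, n = 3) and Cdk9 at 24.5 ± 1.23, whose ranges overlap, then E2f3 at 19.3 ± 4.08 and Cdkn1b at 18.2 ± 1.75. Lowest were Cdk15 at 2.48 ± 1.19 and Cdkn2b at 3.21 ± 0.917, which overlap too, then E2f4 at 5.67 ± 0.547, Ccne2 at 6.13 ± 0.833 and Cdc6 at 6.16 ± 1.48. Cdk1 stood at 12.2 ± 0.876, Mcm5 at 14.5 ± 1.86, the downstream Ccnd3 start at 10.2 ± 1.94 and Cdkn2a at 6.42 ± 0.531.

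Of the wider pathway, 83 further genes (retinoblastoma family and partners, replication, mitosis and checkpoints, ubiquitin ligases) gave 284 tested peaks. With Cort 3 rose and 0 fell (1.06%), with Dex 10 rose and 3 fell (4.58%), and with IL4 28 rose and 19 fell (16.5%), where 1.55%, 5.24% and 27.6% of all peaks were called. The block called 15 higher and 11 lower with Cort (6.44% and 6.13% of all peaks) and 27 and 25 with Dex (9.91% and 10.3%). With IL4 it called 50 and 35 (21.9% and 21.6%). Of those with a Cort call, Wee1, the kinase that holds back Cdk1, rose 3.77 kb from the gene (chr7:110113046-110118288) from 31.1 ± 6.66 CPM (SD, n = 3) to 85.0 ± 8.43 with Cort, 100 ± 6.33 with Dex and 96.2 ± 3.25 with IL4. The changes were 1.45 ± 0.15, 1.69 ± 0.15 and 1.63 ± 0.15. Rb1, the retinoblastoma gene, rose by 0.84 ± 0.18 with Cort and 1.08 ± 0.18 with Dex at a peak inside the gene, and another peak inside it fell by 1.88 ± 0.42 with IL4. With Dex Top2a, the topoisomerase of dividing cells, fell by 0.77 ± 0.19 and Pold1, a replicative polymerase, by 0.74 ± 0.17, while the proliferation marker Mki67 rose by 0.51 ± 0.11. With IL4 Rbl1, a relative of Rb1, rose by 1.60 ± 0.23, and Fbxw7, part of the ligase that degrades cyclin E, rose by 1.89 ± 0.25 inside the gene, while Fbxw7 fell elsewhere with IL4 and, by 2.00 ± 0.43 at a peak 25.1 kb away, with Dex.

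Of the 66 genes 5 had no H3K27ac peak by the rule. Ccna1, Ccnb3 and Cdkn1c had 0 peaks over their spans, and the peak over Cdk5 and that over Mcm4 lay with Slc4a2 and Prkdc. The start peaks of Cdc27, Cdc45, Cdc123, Cdk2 and Mcm8 went to the neighbours Myl4, Ufd1, Nudt5, Pmel and Trmt6, so those starts are not in the counts above.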

How the data were processed

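The authors deposited 1 table of read counts per peak for H3K27ac and 1 for GR. The submitters' processing notes name fastp, Bowtie2, SAMtools, MACS2, featureCounts and mm10. Versions, settings and the meaning of a column named filtered are not given in the sources used here. Columns named C were matched to vehicle by elimination. Peaks were assigned to the nearest RefSeq protein-coding span within 50 kb. The genes, lists and alternatives were chosen with earlier results of these data known.

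Peaks kept by filterByExpr were fitted in R 4.3.3 with edgeR 4.0.16 (TMM factors, quasi-likelihood F test, all groups of an assay together, batch as a term for GR), and p-values were adjusted by Benjamini-Hochberg over all tested peaks, called under 0.05. CPM are counts relative to the library's total in peaks, scaled by TMM factors. That total limits the precision, and the spread between replicates (edgeR common BCV) was 0.24 in H3K27ac libraries against 0.439 in GR libraries.

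H3K27ac replicate numbers, which come from the labels, paired libraries: deviations from group means correlated at 0.268 to 0.678 in 18 same-numbered pairs and at -0.449 to 0.0406 in 36 others. A fit with the number as a block is given where it changes a call or a count. Counts at gene starts with the block were chosen after seeing the data. Genes described by name were the core cyclins, kinases, inhibitors, E2F and Mcm genes, Cdc6, Cdc20 and Cdc45, up to 4 genes per role and treatment with the smallest p among called peaks, and all called GR peaks with the 5 of smallest p. Alternatives covered scaling, filters, DESeq2 1.42.0, gene assignment, batches and each library left out. Scripts were tested on simulated data.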

Additional observations from a re-analysis of the deposited data

Results flagged for a closer look

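In 8 of 60 groups of 4 GR libraries 1 library stood apart from the other 3, where chance alone gives about 1 in 20 groups. Groups at different peaks share libraries and are not independent, and whether 8 is more than chance gives was not tested. Cort replicate 4 did so at the peak 43.8 kb from Cdk1 (chr10:69396703-69396829), with 93.3 CPM where the others had 0.975 to 1.38, and at the peak 31.4 kb from Mcm5 (chr8:75159803-75159914), with 101 CPM where the others had 1.46 to 2.8. Dex replicate 1 had 108 CPM at Ccnd3 where the others had 88.9 to 90.6. Dex replicate 2 had 5.76 CPM at a Cdk20 peak where the others had 4.12 to 4.39, and 1.44 CPM at the Cdkn1a peak inside the gene (chr17:29094698-29094785) where the others had 5.89 to 6.59. Dex replicate 3 had 295 CPM at Cdk8 where the others had 215 to 222, and 10.6 CPM at E2f8 where the others had 3.84 to 4.14. Vehicle replicate 2 had 13.2 CPM at a Cdc42 peak (chr4:137320122-137320254) where the others had 2.58 to 4.2.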

How the results depend on the processing

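No called peak changed direction under an alternative that was run. Called H3K27ac member peaks, 5 with Cort, 16 with Dex, 64 with IL4 and 57 between IL4 and Dex, became 2, 8, 29 and 35 with a log2 change of at least 1, and 47, 69, 111 and 104 with the replicate block. DESeq2 called 12 with Cort and 26 with Dex. With Cort, symbols with further letters gave 9, peaks marked TRUE in the filtered column 8 and a fit of the compared groups alone 2. Leaving out 1 library at a time gave 2 to 10 with Cort, 6 to 22 with Dex, 35 to 56 with IL4, 41 to 57 between IL4 and Dex and 0 to 0 between Dex and Cort. For GR with Cort, 5 calls became 3 with the replicate block, 3 without a count filter, 3 without the batch term, 3 in peaks marked TRUE, 3 with the compared groups alone, 2 without the 1% of peaks with most reads and 0 in batch 2 alone. Some of these fits tested fewer than 19 members: 13 with the block, 6 marked TRUE, 10 with the compared groups alone and 15 without the most read peaks. A call can be lost there because its peak was not tested. The 6 calls with Dex became 3 in peaks marked TRUE and 0 in batch 2 alone, and the 0 with IL4 became 1 with DESeq2. Leaving out 1 GR library at a time gave 2 to 7, 4 to 6 and 0 to 0. GR replicate numbers do not pair libraries (same-numbered correlations from -0.462 to 0.174, others from -0.547 to 0.561). The start peak counts of 8, 15 and 15 with the block were 1, 2 and 9 with no replicate block, and 1 to 9, 4 to 13 and 11 to 17 without the libraries of 1 number, with Cort at 1 and 2 and Dex at 4 among them. The block kept all 68 H3K27ac calls at the peaks described by name and added 77, and it changed no other call there. The cause of these differences was not tested. Of 38 GR peaks 19 had enough counts to test.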
